A study of Mus musculus with 16 samples.

Results

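Heart muscle transcripts were measured in total lung RNA of mice, through 9 genes of the contractile apparatus, calcium handling and hormone output of heart muscle cells: Nppa, Myl4, Myl7, Sln, Myh6, Actc1, Tnnt2, Tnni3 and Myl3. Each gene was represented by the probe set that carries its symbol alone and has the highest mean over the 16 arrays, so these 9 stand beside 18193 genes with such a probe set. All 9 passed the filter on dim signals that left 12369 genes for testing. The list was drawn up from the genes' known use in heart muscle, with earlier results of these data known.

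The mice were female BALB/c, an inbred laboratory strain, with no transgene or deletion in any group. They fell into 4 groups of 4 arrays. Non-pregnant mice received the saline vehicle (PBS) into the nose, or 50 ug of titanium dioxide (TiO2) particles that had been baked to remove endotoxin, and pregnant mice at gestation day 14 received either of the same. RNA was taken 19 hours later, and the study asks whether pregnancy alters the lung's response to particles regarded as inert. Age is not given in the labels, nor whether each array holds 1 mouse, and p-values measure the spread between these samples. Non-pregnant PBS replicate 2 is called pregnant in one label and non-pregnant in another; it was kept as non-pregnant because the design has 4 arrays per group.

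In rodents, sleeves of atrial-type heart muscle run from the left atrium along the pulmonary veins into the lung, so that lung tissue can hold heart muscle transcripts of its own. Atrial muscle is distinguished by the light chains Myl4 and Myl7, by the sarcoplasmic reticulum regulator Sln and by the hormone precursor Nppa. Myh6, Actc1, Tnnt2 and Tnni3 serve the sarcomeres of both atria and ventricles of the adult mouse, and Myl3 is the essential light chain of ventricular muscle and of slow skeletal muscle. In bulk RNA, fewer cells of a type and less RNA per cell cannot be told apart.

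Values are log2(signal + 16) of quantile-normalized intensities, a scale whose floor is 4 and on which the middle probe set of every array lies at 5.94. Levels are compared between arrays for the same probe set and not between genes. The deposited table itself was not scaled between arrays, with trimmed mean signals from 137 to 264. The 10 lung genes listed as a control on tissue varied little in their mean level, from 11.94 to 12.16 over all arrays. That mean is a weak control. Some of its genes, such as Scgb1a1 (13.44 to 13.55) and Sftpc (13.15 to 13.49), lie near the top of the scale, where quantile normalization leaves little room to vary. Dimmer genes of the list varied more, 1 of them from 10.09 to 11.20.

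The pattern across chamber markers was uneven. Myl2, the ventricular regulatory light chain, was above the array median on 0 of 16 arrays, with a range of 4.14 to 5.32. Irx4, a ventricular transcription factor, was likewise above the median on 0 of 16 arrays, at 4.14 to 5.04. Both lay near the floor. Of 6 ventricular list genes, 3 passed the filter: Myh7, the slow and ventricular heavy chain, at 9.06 to 9.78, Mylk3, a heart light chain kinase, at 6.53 to 7.49, and Kcnip2, a potassium channel subunit, which was above the median on 5 arrays. The Myh7 gene is close in sequence to Myh6, and cross-hybridisation between them was not examined.

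Of 16 further atrial and pulmonary vein genes, 12 had a probe set and 8 passed the filter. Mybphl, an atrial myosin binding protein, ranged from 7.16 to 8.11 and was above the array median on all 16 arrays, as was Tbx5, a transcription factor of atria and lung, at 7.37 to 8.51. Others of that list were dim: Bmp10, an atrial growth factor, and Gja5, an atrial and arterial connexin, were above the median on 0 arrays, and Nppb, the companion hormone of Nppa, on 1. Transcriptional regulators of the heart muscle list were mixed. Nkx2-5 was above the median on 3 arrays and Gata4 and Hand2 on 0, whereas Tbx20 was above it on 15 and Myocd, a coactivator of heart and smooth muscle, on 16.

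The 250 bases before the annotated start of each member were taken from RefSeq (GRCm38.p6); 8 of the 9 genes matched, and Sln is not in the table. They were searched on both strands for the CArG box (10 bases bound by serum response factor), the M-CAT element CATTCC, the TATA box TATAAA and the 10-base MEF2 motif. A CArG box was present upstream of Actc1, Myl7 and Myl3, 3 of 8 members, against 1.5% of 32851 promoters. CATTCC was present for 4 of 8 (Myh6, Myl3, Myl7 and Tnnt2) against 12.6%, TATAAA for Nppa against 12.4%, and the MEF2 motif for 0 of 8 against 2.9%. The units differ: a member counts once if any of its entries holds the motif, and the 32851 promoters count entry by entry. Tnnt2 has 2 entries, and only the upstream one holds CATTCC. The following 5 upstream windows are shown because the results turn on these genes; Actc1, Myl7 and Myl3 hold the CArG box, Nppa varied most with treatment, and Tnnt2 had the lowest adjusted p among the members. Each is written 5′ to 3′ on the gene's strand, and capitals mark the motifs just named.
Nppa, chr4:148000472-148000721 (plus strand): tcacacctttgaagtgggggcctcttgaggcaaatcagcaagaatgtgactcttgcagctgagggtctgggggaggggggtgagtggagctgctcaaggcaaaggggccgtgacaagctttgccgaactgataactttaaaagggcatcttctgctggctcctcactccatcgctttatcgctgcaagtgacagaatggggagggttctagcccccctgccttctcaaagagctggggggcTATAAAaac
Myl7, chr11:5898783-5899032 (minus strand): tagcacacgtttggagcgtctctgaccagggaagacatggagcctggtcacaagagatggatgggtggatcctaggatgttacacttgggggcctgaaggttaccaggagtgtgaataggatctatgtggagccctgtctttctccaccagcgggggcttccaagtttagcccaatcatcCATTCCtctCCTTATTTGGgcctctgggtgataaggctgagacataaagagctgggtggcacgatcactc
Actc1, chr2:114052876-114053125 (minus strand): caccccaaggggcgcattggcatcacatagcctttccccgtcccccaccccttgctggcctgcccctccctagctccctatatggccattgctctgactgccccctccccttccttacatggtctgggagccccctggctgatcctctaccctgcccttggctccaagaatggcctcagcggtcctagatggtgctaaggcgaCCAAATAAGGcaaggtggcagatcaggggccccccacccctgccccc
Tnnt2, the upstream one of its 2 entries, chr1:135836084-135836333 (plus strand): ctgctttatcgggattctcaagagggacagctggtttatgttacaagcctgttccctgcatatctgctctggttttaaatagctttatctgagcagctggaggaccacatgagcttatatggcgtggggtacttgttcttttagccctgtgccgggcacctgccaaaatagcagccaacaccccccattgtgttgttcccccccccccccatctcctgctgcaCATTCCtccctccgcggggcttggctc
Myl3, chr9:110763428-110763677 (plus strand): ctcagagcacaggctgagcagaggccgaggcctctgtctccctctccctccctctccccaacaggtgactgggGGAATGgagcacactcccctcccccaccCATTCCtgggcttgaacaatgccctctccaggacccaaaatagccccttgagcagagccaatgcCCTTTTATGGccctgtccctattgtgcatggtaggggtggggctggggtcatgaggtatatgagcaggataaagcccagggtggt
In Myl7 the CATTCC element and the CArG box lie next to each other without overlap, at -70 to -65 and -61 to -52 counted from the start. In Actc1 the CArG box lies at -47 to -38, and in Myl3 at -85 to -76 with CATTCC elements further out.

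Among the atrial genes, Nppa varied most. The gene encodes the precursor of atrial natriuretic peptide, a hormone that atrial muscle releases on stretch. It read 9.37, 9.09, 9.19 and 7.89 on the 4 non-pregnant PBS arrays and 8.29, 8.70, 7.47 and 7.20 on the non-pregnant TiO2 arrays. It read 9.40, 9.47, 9.66 and 9.81 on the pregnant PBS arrays and 8.69, 7.24, 7.97 and 8.48 on the pregnant TiO2 arrays. Every pregnant PBS array lay above every array of the other 3 groups, and the 8 TiO2 arrays overlapped only with non-pregnant PBS replicate 4. The group means fell in the order pregnant PBS (9.58 ± 0.19, SD, n = 4), non-pregnant PBS (8.89 ± 0.67), pregnant TiO2 (8.09 ± 0.64) and non-pregnant TiO2 (7.91 ± 0.70), and the last 2 differ by less than their spread. Without pregnant TiO2 replicate 2 the pregnant TiO2 mean was 8.38 ± 0.37 (n = 3) and the order was the same. If non-pregnant PBS replicate 2, whose labels conflict, were pregnant, its 9.09 would make the PBS groups overlap. In quantile-normalized signal the range was 131 to 882, and the spread within groups exceeded that of 98.2% of the genes tested.

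Myl4, the atrial essential light chain, read 11.48, 10.86, 11.39 and 11.00 on non-pregnant PBS arrays and 10.80, 10.92, 10.52 and 10.53 after TiO2. In pregnant mice it read 10.94, 10.99, 11.32 and 11.29 after PBS and 11.22, 10.78, 11.15 and 10.91 after TiO2. The non-pregnant TiO2 group had the lowest mean (10.69 ± 0.20), and its arrays overlapped with the lowest arrays of the non-pregnant PBS and pregnant TiO2 groups but not with the pregnant PBS group, where the nearest arrays stood at 10.92 and 10.94. Means of the other 3 groups lay between 11.02 and 11.18, closer together than their SDs.

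Myl7, the atrial regulatory light chain, read 11.86, 11.44, 11.63 and 11.30 on non-pregnant PBS arrays and 11.21, 11.27, 11.10 and 11.00 after TiO2. These groups did not overlap. In pregnant mice it read 11.49, 11.39, 11.61 and 11.74 after PBS and 11.74, 11.11, 11.51 and 11.30 after TiO2, and these overlapped. Sln, a small inhibitor of the calcium pump, read 10.51 to 11.12 on 15 arrays without an order of the groups, and 9.41 on pregnant TiO2 replicate 2.

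Members used by atria and ventricles alike showed their lowest means after TiO2 in non-pregnant mice, by the brightest probe set of each. Tnnt2, the heart troponin T that anchors the troponin complex to tropomyosin, read 10.96, 10.95, 11.02 and 10.87 on non-pregnant PBS arrays and 10.44, 10.63, 10.35 and 10.29 after TiO2. It read 10.84, 10.86, 10.97 and 10.95 on pregnant PBS arrays and 11.17, 10.71, 10.98 and 10.77 after TiO2. The 4 non-pregnant TiO2 arrays thus lay below all 12 others, whose group means (10.91, 10.91 and 10.95) differed by less than their spread.

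Tnni3, the inhibitory troponin of heart muscle, read 10.11, 10.12, 10.26 and 9.61 on non-pregnant PBS arrays and 9.33, 9.74, 9.49 and 9.30 after TiO2. It read 9.90, 9.91, 10.29 and 10.28 on pregnant PBS arrays and from 9.95 to 10.35 on the 4 pregnant TiO2 arrays. Only non-pregnant PBS replicate 4 reached into the range of the non-pregnant TiO2 group. Actc1, the heart alpha actin, was tight in that group (11.13 ± 0.03), below all PBS arrays and below 3 of the 4 pregnant TiO2 arrays; the fourth, replicate 2, read 10.91. Myh6, the fast heart myosin heavy chain, read 11.03 to 11.63 over all arrays, and its groups overlapped in each of the comparisons made here.

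**Figure D1:**
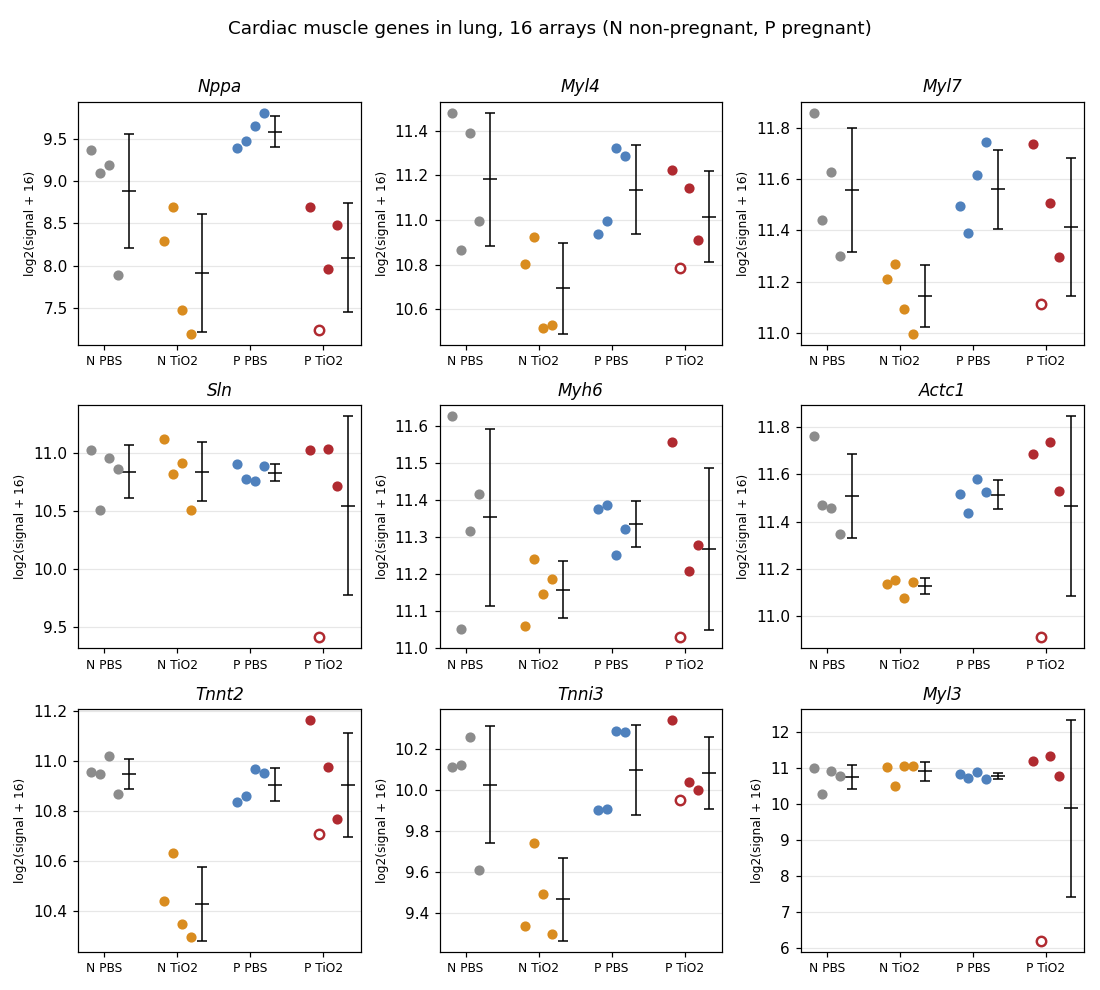
Level of each of the 9 genes as log2(signal + 16), 1 panel per gene with its own vertical range; points are the 4 arrays of each group in replicate order, black bars are mean ± SD, and the open circle is pregnant TiO2 replicate 2. For Tnnt2 the non-pregnant TiO2 arrays (10.29 to 10.63) lie below all others, for Nppa the pregnant PBS arrays (9.40 to 9.81) lie above all others, and for Myl3 a single array stands at 6.19.

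Myl3 went against its place in a list of heart genes. It read 11.00, 10.27, 10.91 and 10.79 on non-pregnant PBS arrays and 11.03, 10.49, 11.05 and 11.05 after TiO2. It read 10.82, 10.71, 10.89 and 10.70 on pregnant PBS arrays and 11.19, 6.19, 11.33 and 10.78 after TiO2. On pregnant TiO2 replicate 2 its signal was 2.6% of the mean of the other 3 arrays of its group, and all 3 of its probe sets were lowest on that array, at 6.19, 6.57 and 6.39.

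That array stood apart in other muscle transcripts as well. All 18 tested genes of the fast skeletal muscle list were below the other 3 arrays of the group, with a median difference of -3.70, and all 9 of the squamous epithelium list were, with a median of -4.13. Acta1, the skeletal alpha actin, was at 6.56 there against a mean of 12.29 over the other 15 arrays, and Krt13, a keratin of squamous linings such as the oesophagus, at 5.21 against 12.41. The 5 fat genes gave a median of -2.12, all below the other 3 arrays. All 20 tested genes of the list shared by heart and skeletal muscle were below those 3 arrays too (median -1.47). So were 10 of 15 on the heart muscle list (median -0.26), 7 of 8 smooth muscle genes (median -0.31) and 3 of 8 on the atrial list (median -0.03). The lung list differed by a median of 0.00, with 2 of 10 below. The 3 ventricular list genes had a median of 0.05 and ran from -0.70 to 0.24. Mylk3 had its lowest value of all arrays there (6.53).

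The other members differed far less on that array. Sln was at 34.3% of the mean signal of the other 3 arrays, Nppa at 41.8% and Actc1 at 59.4%. Myl7 was at 75.0%, Myh6 at 79.6%, Myl4 at 80.3%, Tnnt2 at 82.8% and Tnni3 at 87.9%. All 9 were below each of the other 3 arrays of the group, as were 24.1% of all genes tested, and Sln, Myh6, Actc1 and Myl3 were below all 15 others, as were 6.3% of all genes tested. Values of the comparisons that include this array are therefore given without it as well where they move.

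**Figure D2:**
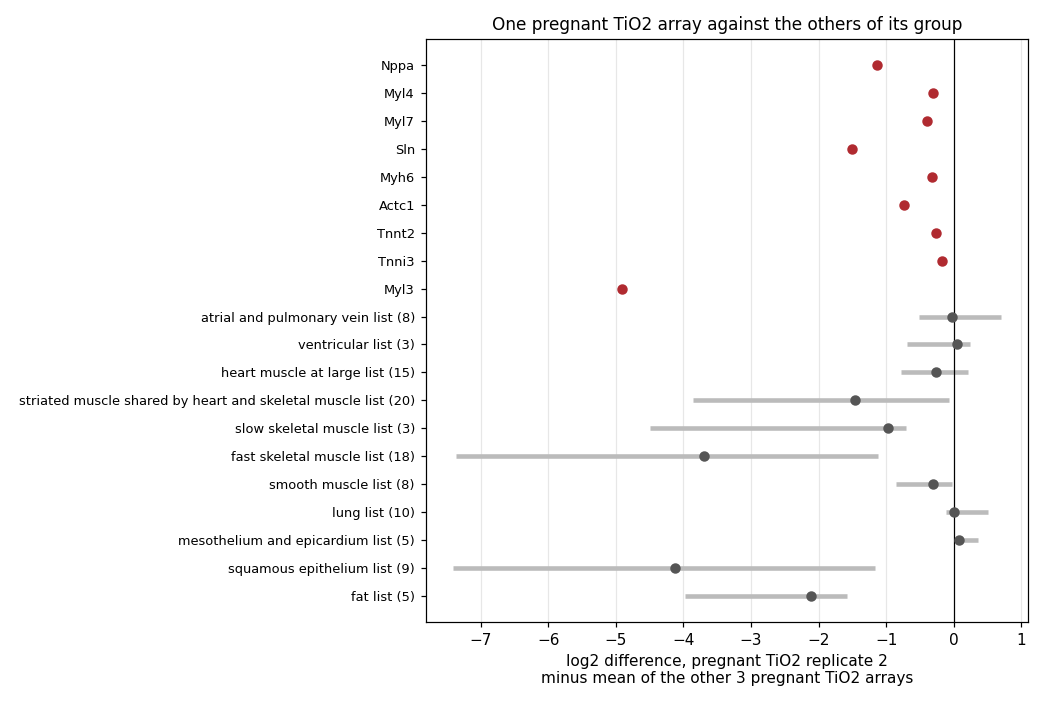
Log2 difference of pregnant TiO2 replicate 2 from the mean of the other 3 pregnant TiO2 arrays; red points are the 9 genes, grey points are medians of marker lists (tested genes in brackets) and grey bars run from the lowest to the highest gene of a list. Myl3 (-4.91) lies with the fast skeletal (-3.70) and squamous (-4.13) lists, and the other 8 genes lie between -1.51 and -0.18.

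Non-pregnant PBS replicates 3 and 4 stood apart in another way. The mean of the 2 tested thymus genes, Prss16 and Cd8b1, was 8.93 and 9.49 on them, against 5.70 and 6.24 on the other non-pregnant PBS arrays, 5.51 to 5.77 on non-pregnant TiO2 arrays and 5.87 to 6.30 on pregnant TiO2 arrays. Fits without the 3 arrays leave out these 2 and pregnant TiO2 replicate 2.

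Over the 15 arrays other than pregnant TiO2 replicate 2, Myl3 also followed the fast skeletal muscle list. Its level and the mean of the 18 genes had Pearson's r = 0.91 (permutation test with 100000 resamples, p = 1e-05, the smallest they can give; adjusted over 18 relations p = 0.00018) and Spearman's rho = 0.85 (p = 0.00018, adjusted p = 0.00324). Without the 2 arrays farthest from the median of the list, r was 0.79, and with each group's mean taken off it was 0.91. For the other 8 members r with that list lay between -0.52 and 0.48, and the adjusted p between 0.0931 and 0.971 by the same permutation test. On the slow muscle list, Mybpc1 read 4.11 on pregnant TiO2 replicate 2 against a mean of 8.47 over the other 15, Tnnt1 read 5.62 there against 6.68, and Tnni1 5.15 against 5.91.

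The genes most like each member, by Pearson's r over 16 arrays after taking off group means, are a description of the libraries. For Myl3 they were Tnnc2 (0.996), Myh1, Myh8, Lor (0.991) and Tnni2 (0.990), 3 of them on the fast skeletal list. For Sln they were Smpx (0.976), Asb11, Cdsn, Pde4dip and Lce1d. These values lean on the array that stood apart: over the other 15, Myl3 had r = 0.938 with Tnni2 but 0.734 with Lor, and Sln had 0.883 with Smpx but 0.735 with Lce1d.

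Myl7 was most like Casq2 (0.898), the calcium store protein of heart muscle, and Mybphl (0.893), then Rxylt1, Zdhhc9 and Sycp3; over 15 arrays the first pair gave 0.864 and 0.859 and left the top 5, which were then Gpx4, Coprs, Naa38, Uqcc3 and Pth1r, none on a heart list. Tnnt2 was most like Oscp1 (0.842), Islr, Ndufs7, Irgq and Atp2a2, the calcium pump of heart and slow muscle (0.797; 0.742 over 15 arrays, no longer in the top 5). Nppa was most like Scgb3a1 (0.837), Xrcc1, Pias4, Cd209f and Ccdc3, Myl4 like Nme6 (0.937), Rangrf, Ethe1, Zdhhc9 and Atp5g1, and Tnni3 like Lrrc3b (0.865), Mtarc2, Dpysl3, Smdt1 and Fkbp11. Myh6 was most like Uqcr10 (0.919), Rwdd3, Pcx, Pmpca and Ndufa8, and Actc1 like Sgca (0.957; 0.815 over 15 arrays, no longer in the top 5), a sarcoglycan of striated muscle, Pdlim5, Hspb6, Apobec2 and Cacng1. Among the members themselves, the 28 pairs without Myl3 had r from 0.14 to 0.87 over 16 arrays, highest for Myl4 with Myl7, and 0.05 to 0.86 over 15 arrays. The 8 pairs with Myl3 had r from 0.16 to 0.93 over 16 arrays and from -0.34 to 0.58 over 15 arrays. Sln with Myl3 was the highest of these 8 both times, and Actc1 with Myl3 gave 0.89 and 0.41.

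The comparison of TiO2 with PBS in non-pregnant mice asks whether particles alter these transcripts without pregnancy. 7 of 9 members lay below 0, with a median log2 change of -0.41 where the median of all genes was -0.02 and 54.5% of them lay below 0. None was called by limma after Benjamini-Hochberg adjustment, nor was any other gene (0% of 12369); 6 members had an unadjusted p under 0.05, as did 1223 genes in all (9.89%). Tnnt2 differed by -0.52 ± 0.10 (SE), a ratio of 0.697, with an adjusted p of 0.146, equal to the lowest of any gene in this contrast, and rank 5 by p. Its groups did not overlap, and neither did those of Myl7 (-0.41 ± 0.14, adjusted p = 0.353) and Actc1 (-0.39 ± 0.14, adjusted p = 0.408): 3 of 9 members with every TiO2 array lower, against 3.11% of all genes. With every TiO2 array higher there were 0 of 9, against 2.09%.

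Other members gave -0.97 ± 0.37 for Nppa, -0.56 ± 0.15 for Tnni3 (adjusted p = 0.275), -0.49 ± 0.15 for Myl4, -0.19 ± 0.12 for Myh6, 0.00 ± 0.27 for Sln and 0.16 ± 0.78 for Myl3. Myl4 is set by its bright probe set. Its other one, above the median on 1 array only, gave 0.07. The second probe set of Myh6, above the median on 12 arrays, gave 0.71, the other way from the brighter one. Heart genes outside the members lay the same way without passing the test. On the heart muscle list 13 of 15 were below 0 (median -0.09). Casq2 (-0.61 ± 0.17, adjusted p = 0.276) lay further below 0 than that median. So did the troponin C gene Tnnc1 (-0.53 ± 0.17, adjusted p = 0.326). Pln, which restrains the calcium pump, gave -0.42 ± 0.16 (adjusted p = 0.413). On the atrial list 6 of 8 were below 0 (median -0.16), Mybphl at -0.39 ± 0.16, and on the ventricular list 1 of 3. The fast skeletal list lay the other way, with 16 of 18 above 0 (median 0.21).

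Markers of other tissue moved with this contrast. All 5 tested fat genes were lower (median -1.63; 0 called), Fabp4 at -1.63 ± 0.50 and Adipoq at -1.68 ± 0.59. The fat list mean was 7.45, 9.16, 8.27 and 6.88 on the non-pregnant TiO2 arrays against 8.85 to 10.45 on the non-pregnant PBS arrays, and its summed signal 1257 to 6268 against 5669 to 12821. All 5 mesothelium and epicardium genes were lower too (median -0.15). So were both tested thymus genes (median -1.98, and -0.36 without the 3 arrays) and both tested lymph node genes (median -1.84, and -1.60 without the 3 arrays). The thymus mean was 5.51 to 5.77 on the TiO2 arrays against 5.70 to 9.49 after PBS, and the lymph node mean 4.88 to 7.70 against 7.70 to 8.75. Without the 3 arrays 7 of 9 members were again below 0 and 0 were called, with Nppa at -1.32 ± 0.33, Tnnt2 at -0.52 ± 0.12 and Actc1 at -0.49 ± 0.10 (adjusted p = 0.156). Signal of the 18S ribosomal control probe sets, in intensities as deposited, was 132 to 589 against 77.2 to 194. The ratio of 3′ to 5′ control signal was 1.30 to 1.39 against 1.37 to 1.46 for beta-actin. For Gapdh it was 0.78 to 0.91 against 0.83 to 1.20. With the fat list mean as a covariate, chosen after seeing the data, the change of Tnnt2 was -0.39 ± 0.12 (adjusted p = 0.705), that of Nppa -0.41 ± 0.41 and that of Myl7 -0.25 ± 0.16. Over 15 arrays Tnnt2 and the fat list mean had r = 0.79 (permutation test, p = 0.00103, adjusted over 18 relations p = 0.00927) and rho = 0.51 (p = 0.0541, adjusted p = 0.139). Without the 2 arrays farthest from the median, both of the non-pregnant TiO2 group, r was 0.55, and with group means taken off 0.31. Pregnant TiO2 replicate 2 was left out of all relations with fat, and no r that includes it was computed. Its fat list mean of 7.65 lay within the range of the non-pregnant TiO2 arrays. On it Tnnt2 (10.71) and Tnni3 (9.95) lay above every non-pregnant TiO2 array. Myl4 and Myl7 lay within that group's range, and Actc1 (10.91) and Myh6 (11.03) below it. Of the other members, Myl4, Myl7, Myh6, Actc1 and Tnni3 had r from 0.63 to 0.71 with the fat list (adjusted p from 0.0207 to 0.0282, permutation test), Myh6 also by rho (0.70, adjusted p = 0.0436). Nppa had 0.58, Sln 0.30 and Myl3 -0.09, with adjusted p from 0.0533 to 0.831. With group means taken off, r with fat lay between -0.15 and 0.47 for all 9, and no p-value was computed for those. The permutations moved arrays freely between groups, so the p-values with fat include differences between group means. The part of fat, mesothelium, thymus, lymph node or RNA quality in the members' values was not tested beyond these numbers.

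**Figure D3:**
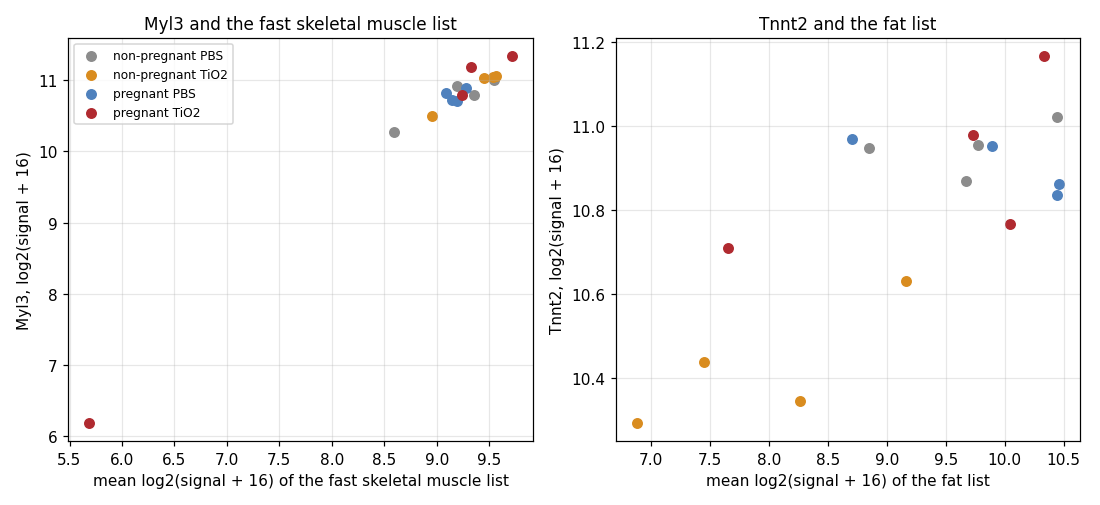
Each point is 1 of the 16 arrays, coloured by group; axes are log2(signal + 16), with the mean of a marker list across and the gene up. Left, Myl3 lies along the fast skeletal muscle mean and the pregnant TiO2 array at 5.69 carries the lowest Myl3 (6.19); right, the 4 non-pregnant TiO2 arrays hold the 4 lowest Tnnt2 values (10.29 to 10.63) at fat list means of 6.88 to 9.16.

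In pregnant mice the same comparison turned on Nppa. Every TiO2 array was below every PBS array, and the change was -1.49 ± 0.37, a ratio of 0.356 (adjusted p = 0.447, rank 27). It was the only 1 of 9 members whose groups did not overlap, against 2.17% of all genes lower and 2.05% higher. No gene was called (0% of 12369), and 1 member and 795 genes had an unadjusted p under 0.05. Without pregnant TiO2 replicate 2 the change of Nppa was -1.21 ± 0.36 (adjusted p = 0.411). On intensities as deposited, without normalization, it was -1.59 with an adjusted p of 0.0178, so this call depends on the scaling.

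The other members gave values from -0.91 ± 0.78 (Myl3) to 0.00 ± 0.10 (Tnnt2). 8 of 9 lay below 0 (median -0.12), against 50.1% of all genes, but without pregnant TiO2 replicate 2 it was 3 of 9 with a median of 0.03. Sln moved from -0.28 to 0.09, Actc1 from -0.05 to 0.14, Myh6 from -0.07 to 0.01 and Myl3 from -0.91 to 0.32. The fast skeletal list went from 16 of 18 below 0 (median -0.62) to 0 of 18 (median 0.26). The atrial list had 6 of 8 genes above 0 with that array and without it. The heart muscle list had 12 of 15 genes below 0 (median -0.20) with that array included. Its mean level was 7.95 ± 0.04 (SD) on the pregnant PBS arrays and 7.80 ± 0.21 on the pregnant TiO2 arrays. Without replicate 2 the latter was 7.89 ± 0.15.

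The difference between the TiO2 responses of pregnant and non-pregnant mice was tested directly, and called 0% of genes. Tnnt2 gave 0.52 ± 0.14 (adjusted p = 0.311) and Tnni3 0.55 ± 0.21 (adjusted p = 0.405); these 2 members had an unadjusted p under 0.05, as did 1352 genes in all. Without pregnant TiO2 replicate 2 they gave 0.59 ± 0.14 and 0.59 ± 0.22, and Actc1 went from 0.34 to 0.52 ± 0.13 (adjusted p = 0.230), with 0 called. Nppa gave -0.52 ± 0.52, which single arrays moved: it was -0.23 without pregnant TiO2 replicate 2, -0.19 without non-pregnant PBS replicate 4, -0.26 without non-pregnant TiO2 replicate 2 and 0.11 without the 3 arrays. Myl7 gave 0.27 ± 0.20, and 0.37 without pregnant TiO2 replicate 2. A different response of any member with pregnancy was therefore not shown. Averaged over both kinds of mice, TiO2 minus PBS was below 0 for all 9 members by the brightest probe set of each, against 53.8% of all genes. Without pregnant TiO2 replicate 2 it was 7 of 9. The second probe sets of Myh6 and Myl4 gave 0.45 and 0.03, the other way, and those of Sln and Tnnt2 gave -0.22 and -0.27. In this average 0% of genes were called. Nppa gave -1.23 ± 0.26 (adjusted p = 0.206, rank 15), and -1.09 ± 0.24 without that array. An unadjusted p under 0.05 was found for 6 members and 767 genes. On intensities as deposited Nppa was the 1 member to pass, with an adjusted p of 0.00761.

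**Figure D4:**
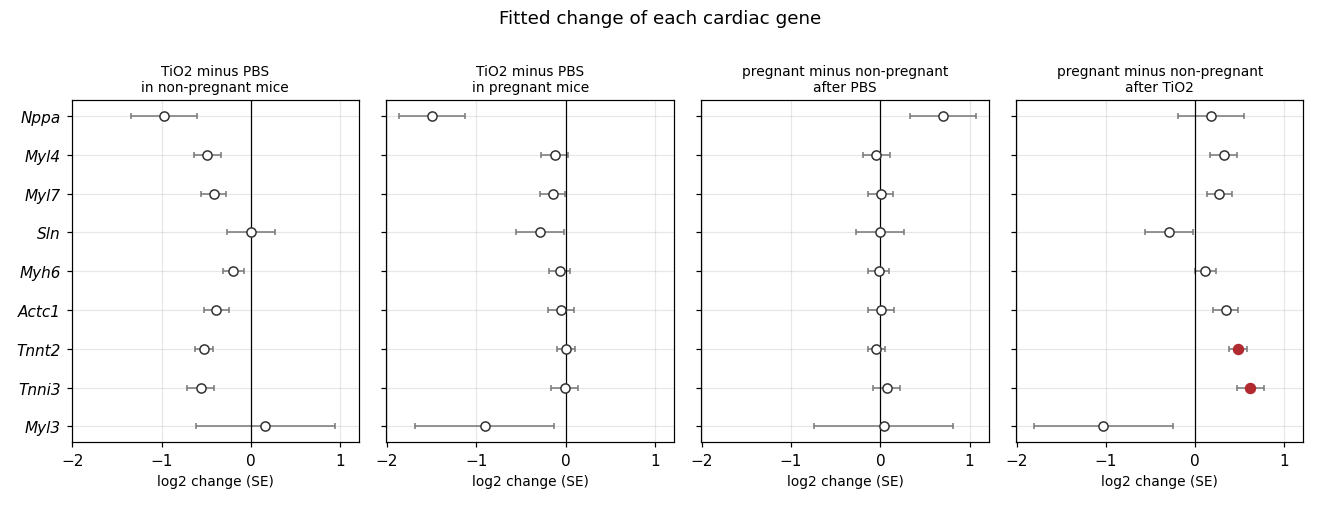
Fitted log2 change of each gene with its standard error in 4 comparisons, on a shared axis; filled red points passed an adjusted p of 0.05 and open points did not. Only Tnnt2 (0.48) and Tnni3 (0.62) passed, in pregnant against non-pregnant mice after TiO2, and Nppa has the largest change in pregnant mice (-1.49).

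Between pregnant and non-pregnant mice after PBS the fitted changes were small for 8 members and larger for Nppa. No member was called, where 1.04% of genes were, and 0 of 9 had an unadjusted p under 0.05 against 1471 of all genes. Nppa was higher by 0.70 ± 0.37 (adjusted p = 0.487); every pregnant array was above every non-pregnant one, against 3.46% of all genes, but the nearest arrays stood at 9.40 and 9.37, and the groups would overlap with the conflicting array as pregnant. Without non-pregnant PBS replicate 4 the change was 0.37. With every pregnant array lower there were 0 of 9, against 2.30%. The other 8 members gave changes between -0.05 and 0.07.

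After TiO2, Tnnt2 and Tnni3 were higher in pregnant than in non-pregnant mice, the 2 calls among the members. Tnnt2 rose by 0.48 ± 0.10, a ratio of 1.39 (adjusted p = 0.0282), and Tnni3 by 0.62 ± 0.15, a ratio of 1.54 (adjusted p = 0.0470). They make 2 of 9 members where 1.88% of genes were called. In both, all 4 pregnant arrays were above all 4 non-pregnant arrays, against 9.56% of all genes, and 0 of 9 members lay the other way, against 6.18%. This comparison shares its non-pregnant TiO2 arrays with the first one, in which the same genes were low.

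Actc1 gave 0.34 ± 0.14 (adjusted p = 0.198), Myl4 0.32 ± 0.15 (adjusted p = 0.249), Myl7 0.27 ± 0.14, Nppa 0.18 ± 0.37 and Myh6 0.11 ± 0.12. The second probe set of Myh6 gave -0.39 and that of Myl4 -0.08, both the other way. Sln gave -0.29 ± 0.27 and Myl3 -1.03 ± 0.78. Without pregnant TiO2 replicate 2 all 9 were above 0 and Actc1 passed as well (0.53 ± 0.10, adjusted p = 0.0178), making 3 of 9 where 2.22% of genes were called in that fit. Beyond the members, Casq2 rose by 0.77 ± 0.17 (adjusted p = 0.0292), 1 of 15 tested genes of the heart muscle list, and Mybphl gave 0.39 ± 0.16 (adjusted p = 0.193). None of the 8 atrial or 3 ventricular list genes passed.

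Both calls are close to the threshold. With the fat list mean as covariate Tnnt2 gave 0.37 ± 0.11 (adjusted p = 0.156) and Tnni3 0.53 ± 0.18 (adjusted p = 0.192). All 5 fat genes were higher in this comparison (median 1.49), as were all 5 mesothelium and epicardium genes (median 0.36). So were both tested lymph node genes (median 1.77, 1 called) and both tested thymus genes (median 0.52). Pregnant TiO2 replicate 2 is included in these medians. Without it the list mean of the pregnant TiO2 group went from 9.44 to 10.04 for fat and from 7.92 to 8.74 for lymph node. For mesothelium it went from 8.39 to 8.36 and for thymus from 6.14 to 6.16. Deposited 18S signal was 47.5 to 166 on the pregnant arrays against 132 to 589. The 3′ to 5′ ratio was 1.33 to 1.47 against 1.30 to 1.39 for beta-actin, and 0.82 to 1.06 against 0.78 to 0.91 for Gapdh. The part of all these in the calls was not tested beyond the covariate. Both calls were lost on leaving out non-pregnant TiO2 replicate 1, 3 or 4 or pregnant TiO2 replicate 1 or 3, with adjusted p from 0.0617 to 0.151. That of Tnni3 was also lost without non-pregnant PBS replicate 1, pregnant PBS replicate 1, 3 or 4, or pregnant TiO2 replicate 4, with adjusted p from 0.0511 to 0.0864. Both were lost on intensities as deposited (0.859 and 0.721). Tnni3 also missed the threshold with pseudocount 1 (0.0529), without the filter (0.0765) and with the conflicting array as pregnant PBS (0.0592). With the fast skeletal mean as covariate it missed as well (0.0508), while Actc1 passed (0.01455). Tnnt2 missed it with its second probe set (0.0630) and in a fit of only the 2 groups (0.0601). The changes kept their sign throughout, from 0.37 to 0.55 for Tnnt2 and from 0.52 to 0.71 for Tnni3. Averaged over both exposures 4.42% of genes were called and 0 of 9 members, and without pregnant TiO2 replicate 2 4.32% of genes and 1 member, Actc1 (0.27 ± 0.07, adjusted p = 0.0326); Tnni3 gave 0.34 ± 0.11 (adjusted p = 0.0797) and Tnnt2 0.22 ± 0.07 (adjusted p = 0.0993), the 2 members with an unadjusted p under 0.05, as had 2430 genes in all.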

How the data were processed

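Total lung RNA was hybridised to 16 Affymetrix mouse expression arrays. The deposited table holds 1 linear intensity for each of 45101 probe sets and each array; GCOS, MAS5 and RMA are named per the submitters' processing notes, but no label says which of them made these values. The 64 control probe sets were left out and the rest quantile-normalized, then log2(value + 16) was taken, which understates changes of weak signals. Probe sets above their array's median on at least 4 arrays were kept, and the brightest with a single symbol stood for each gene; 34945 had 1 symbol, 932 several and 9160 none listed. The 7 contrasts were fitted with limma 3.58.1 in R 4.3.3 (lmFit and eBayes, 4 group means, 12 residual degrees of freedom, two-sided), with Benjamini-Hochberg adjustment over 12369 genes at 0.05. The script was tested on simulated data. The number of arrays limits the precision. Correlations used permutation tests in numpy and scipy that moved arrays freely between groups.

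The members and the lists were chosen with earlier results of these data known, so no list is tested as a list. Named genes are the members, for each the 5 genes most like it, heart list genes, and up to 3 of the brightest genes of any other list. Alternatives covered scaling, pseudocount (1 and 64), filter, probe set, arrays in the fit, spread estimate, array weights, the conflicting label, 3 arrays of unlike tissue content, the fast skeletal mean as covariate and each array left out. The fat covariate and the list values without doubted arrays were added after seeing the data.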

Additional observations from a re-analysis of the deposited data

Results flagged for a closer look

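Of 36 sets of 4 arrays (9 genes in 4 groups), 2 held an array far from the others, where chance would give about 1.8. Both concern Myl3. On pregnant TiO2 replicate 2 Myl3 stood at 6.19, with a gap to the nearest array of 0.89 of the group's range, and on non-pregnant TiO2 replicate 2 it stood at 10.49, with a gap of 0.96 of the range. The fast skeletal muscle mean was also the lowest of its group on both arrays, at 5.69 and 8.96.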

How the results depend on the processing

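No paired analysis was possible because the labels carry no replicate numbers and the numbers used here follow accession order. The array titles do carry a running number, in which the non-pregnant TiO2 arrays form an unbroken row and no other group does. What that order reflects is not stated, and any effect of it cannot be told apart from that group. Of 1772 refits of a member in a contrast, 1615 kept the direction and the side of the threshold, 10 gained a call, 25 lost one and 122 changed sign without a call on either side. Part of this agreement was fixed in advance. Leaving out an array of a group outside a comparison cannot alter the log2 change, only its SE and adjusted p. The number of members called in pregnant against non-pregnant mice after TiO2 was 0 on intensities as deposited and with the fat covariate, 1 with pseudocount 1, without the filter, with the second probe set, in a fit of only the 2 groups and with the conflicting array as pregnant PBS, 3 with array weights and without the 3 arrays (Actc1 added), and 0 to 3 on leaving out each array. With the fast skeletal covariate Actc1 was called in place of Tnni3 in that comparison. On intensities as deposited 1 was called for TiO2 in pregnant mice and 1 for TiO2 averaged, Nppa in both. For pregnancy averaged over exposures 1 was called with array weights (Tnni3) and 1 with the fast skeletal covariate (Actc1), and 0 to 1 on leaving out each array. The cause was not tested. Counts over all genes moved more: after TiO2 they were 233 in the reported fit, 21 as deposited, 22 with the fat covariate, 104 with the conflicting array moved, 141 without the filter, 428 without 3 arrays of unlike tissue content (non-pregnant PBS replicates 3 and 4 and pregnant TiO2 replicate 2), 483 in only the 2 groups, 1505 with array weights and 52 to 382 leaving out each array. After PBS they were 129, and 38, 49, 7 and 295 as deposited, in only the 2 groups, with the array moved and without the 3 arrays, and 71 to 219 leaving out each array. Averaged over exposures they were 547, and 102, 935, 109, 1074 and 252 as deposited, with weights, with the array moved, without the 3 arrays and with the fat covariate, and 381 to 877 leaving out each array. In the TiO2 contrasts they stayed between 0 and 5. Group mean levels moved by more than 1 SD in 2 of 36 on intensities as deposited and in 0 on the trimmed mean scale.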

Other observations

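Myh7 did not follow Myl3 on pregnant TiO2 replicate 2. It read 9.74 there, against a mean of 9.38 over the other 15 arrays, while the slow muscle gene Mybpc1 was at 4.11 against 8.47.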
